A study of Mus musculus with 6 samples.

Results

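Nuclear receptors are transcription factors that bind DNA and, in most cases, a small lipid-soluble ligand such as a steroid, thyroid hormone, retinoic acid, vitamin D or a fatty acid. Many of them bind as heterodimers with a retinoid X receptor (RXR), and most act through coactivators, which open chromatin, and corepressors, which recruit histone deacetylases. In heart muscle, thyroid hormone receptors set the balance of contractile genes, PPARs and oestrogen-related receptors (ERRs) govern genes of fatty acid oxidation and mitochondria, and glucocorticoid and mineralocorticoid receptors relay stress hormones. The genes described here are 38 mouse genes of this system, 33 receptors and 5 coregulators, taken from a named list that leaves out the NR4A receptors. All 38 were matched by symbol to a gene identifier among the 32739 genes measured.

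The RNA-seq libraries, 3 with vehicle and 3 with BRL, were made from HL-1 cells, an established line that stems from mouse atrial cardiomyocytes. The cells of all 6 libraries had been hypoxic for 6 h and then reoxygenated for 1 h, so no group without that insult was compared. The treated cells received BRL37344, which the series calls a β3-adrenergic agonist, at 5 µM in the medium; the sources used here do not state when it was given relative to hypoxia. No label says whether replicates are separate cultures, so p-values measure only the spread among these 6 samples, and that spread may be technical.

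Total expected counts ranged from 4440168 to 5060049 in vehicle and from 6812810 to 8332472 in BRL, and 3 counts corresponded to 0.360 to 0.676 CPM, the count scaled to a common library size. BRL replicate 1 stood apart from the other libraries. Mitochondrially encoded genes took 5.03% of its counts against 16.54% to 21.9% in the other 5, and the chi-square per degree of freedom between it and BRL replicates 2 and 3 was 89.1 and 76.8, against 4.2 between those. Long transcripts were also higher in it: the median log2 ratio to the vehicle mean over the 1091 tested genes with a longest transcript of at least 7000 bases was 0.09 in BRL replicate 1 and −0.24 and −0.15 in replicates 2 and 3. Results are therefore also given without BRL replicate 1, and, where length could matter, without it and with the trend on length and GC content removed. The cells had cardiomyocyte genes: 15 of 16 cardiomyocyte and atrial markers passed the filter on low counts, against 1 of 10 fibroblast and 1 of 10 leukocyte markers, with 7 and 9 of those lists at no more than 3 counts in every library. The summed cardiomyocyte markers were 8213 to 9064 CPM in vehicle and 4728 to 6313 CPM in BRL, so the sum was lower in every BRL library. Abundant genes carry that sum. By gene, 7 of the 15 had every BRL library below and 1 every BRL library above the vehicle libraries. The shares over all genes tested were 15.5% and 16.0%. The other 7 overlapped, and the median log2 fold change was −0.16. Of the 15, edgeR's quasi-likelihood test called 3 lower, DESeq2 4 and the exact test 6, and none of these called any higher. Over all 12047 genes tested, the quasi-likelihood test called 122 higher and 216 lower, and the exact test 418 and 527. DESeq2, which was run on unfiltered counts, called 288 higher and 330 lower. These are the background for each count of calls by these tools given below. Without BRL replicate 1 the quasi-likelihood test called 8 lower and 3 higher (10.9% and 10.3% over all genes). Of the smooth muscle markers, some of which immature cardiomyocytes also express, 7 of 8 were tested, at 3591 to 4011 CPM in vehicle and 1616 to 3162 CPM in BRL. All BRL libraries lay below the vehicle libraries for 4 of the 7 and above for none (15.5% and 16.0% over all genes). Their median log2 fold change was −0.53. Of the endothelial markers 3 of 10 were tested, at 23.5 to 31.0 CPM in vehicle and 28.7 to 60.5 CPM in BRL, and edgeR's quasi-likelihood test called none of these 2 lists' genes. DESeq2 and edgeR's exact test each called 1 smooth muscle marker lower and 1 endothelial marker higher. Without BRL replicate 1 the quasi-likelihood test called 4 smooth muscle markers lower and 1 endothelial marker higher (10.9% and 10.3% over all genes). In bulk RNA, fewer cells of a type and less RNA per cell cannot be told apart, and the part of these markers in the receptor results was not tested.

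HL-1 cells expressed most of the family. Of the 38 genes, 30 had a mean of at least 1 CPM in vehicle (25 receptors and all 5 coregulators). The filter on low counts passed 28, which were tested (23 receptors and 5 coregulators). It left out Esr1 and Esr2, which were just above 1 CPM in vehicle (means of 1.05 and 1.39 CPM). Levels between genes are compared in TPM, the abundance per transcript molecule rescaled from the deposited RSEM fraction, which takes transcript length into account. The corepressor Ncor1, the scaffold that ties unliganded receptors to histone deacetylase 3, was the highest, at 114, 128 and 103 TPM in the 3 vehicle libraries. Among receptors, Thra, the thyroid hormone receptor α, had 50.4 ± 2.74 TPM (SD, n = 3), Nr1h2, the oxysterol receptor LXRβ, 49.0 ± 5.73 TPM, and Rxrb, the RXR β isotype, 47.8 ± 4.28 TPM. These 3 did not differ beyond their spread. The counts of Ncor1 and Thra were not whole and exons of both overlap other genes, so their levels depend on how shared reads were divided. Esrra, the oestrogen-related receptor α, followed at 38.0 ± 5.24 TPM, and then Nr3c1, the glucocorticoid receptor, at 27.5 ± 2.63 and Vdr, the vitamin D receptor, at 27.3 ± 2.62 TPM, which again lay within each other's spread. Ppard, the PPAR δ isotype, had 19.4 ± 2.25 TPM and Rara, the retinoic acid receptor α, 17.9 ± 1.62 TPM, also within their spread. The lowest tested receptors were Rxra at 2.30 ± 0.479 TPM and Nr6a1, the germ cell nuclear factor, at 2.04 ± 0.517 TPM.

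**Figure D1:**
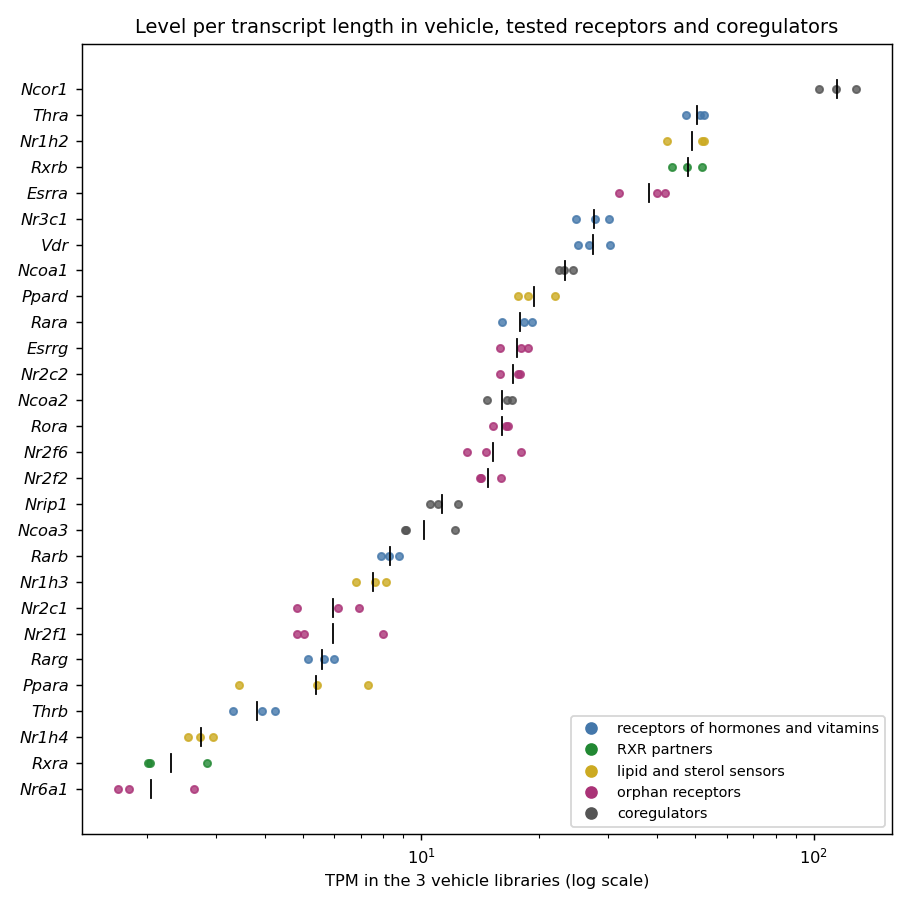
Level per transcript length, in TPM on a log scale, of the 28 tested genes in the 3 vehicle libraries; each point is 1 library, the black tick is the mean and the colour is the role of the gene. Ncor1 lies above all receptors at a mean of 115 TPM, and Thra, Nr1h2 and Rxrb overlap near the top of the receptors.

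Several families were represented by some isotypes and not by others. Of the RXRs, the common heterodimer partners, Rxrb and Rxra were tested, and Rxrg had 1 count in 1 vehicle library and none elsewhere. Of the PPARs, which sense fatty acids, Ppard and Ppara were tested (Ppara at 5.39 ± 1.93 TPM), and Pparg, the adipocyte isotype, had 0, 4 and 2 counts in vehicle and 1, 2 and 2 in BRL. Of the ERRs, Esrra and Esrrg were tested, and Esrrb had 1 count in BRL replicate 1 alone. The oestrogen and mineralocorticoid receptors were at the edge of detection. Esr1, the oestrogen receptor α, had 2, 8 and 5 counts in vehicle and 4, 2 and 4 in BRL. Esr2, the β form, had 3, 8 and 9 counts in vehicle and 7.03, 5.01 and 6 in BRL. Nr3c2, the mineralocorticoid receptor, had 0, 4 and 2 counts in vehicle and 6, 4 and 5 in BRL. The groups overlapped in all 3, and the filter on low counts left them out of the test. Pgr, Hnf4a and Rorb had 1 count in 1 vehicle library, and Nr5a2 had 1 count in vehicle replicate 2 and 1 in BRL replicate 2. No gene that the filter left out had more than 9 counts in any library, and none of these 10 was called in the fit with no filter on low counts.

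With BRL, 1 gene of the 28 rose and 1 fell. The gene that rose was Vdr and the gene that fell was Thra, at an adjusted p under 0.05 (edgeR, quasi-likelihood F-test, Benjamini-Hochberg over all 12047 tested genes). Among all genes tested, 1.01% were called higher and 1.79% lower. A share of 3.57% in each direction among the receptors and coregulators rests on a single gene. Unadjusted p was under 0.05 for 8 of the 28 and for 2698 of the 12047, so that count is near the background. The same 2698 of 12047 is the background for each count of unadjusted p given below. The median log2 fold change of the 28 was −0.02, against 0.01 over all genes tested. Every BRL library lay above every vehicle library for 6 genes (Vdr, Rarg, Rxra, Ppara, Nr2f2 and Esrra) and below for 5 (Rarb, Thra, Thrb, Nr1h4 and Esrrg), which is 21.4% and 17.9% of the 28. The shares over all genes tested were 16.0% above and 15.5% below, so these counts are near the background. The other 17 genes overlapped between groups. For Ppara the margin was smaller than the rounding: vehicle replicate 2 and BRL replicate 1 were both 10.7 CPM.

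Leaving out BRL replicate 1 gave more calls among the receptors and among all genes alike. Without it, 5 genes were called higher (Vdr, Rarg, Ppard, Nr1h2 and Esrra) and 6 lower (Thra, Thrb, Nr3c1, Rora, Esrrg and Ncor1). That is 17.9% and 21.4% of the 28, against 10.3% higher and 10.9% lower over all genes tested in the same fit. With the trend on length and GC content removed as well, 2 were called higher (Vdr and Ppard) and 2 lower (Thra and Esrrg), or 7.14% in each direction against 6.66% and 6.91% over all genes. Vdr and Thra were called in all 3 of these fits.

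**Figure D2:**
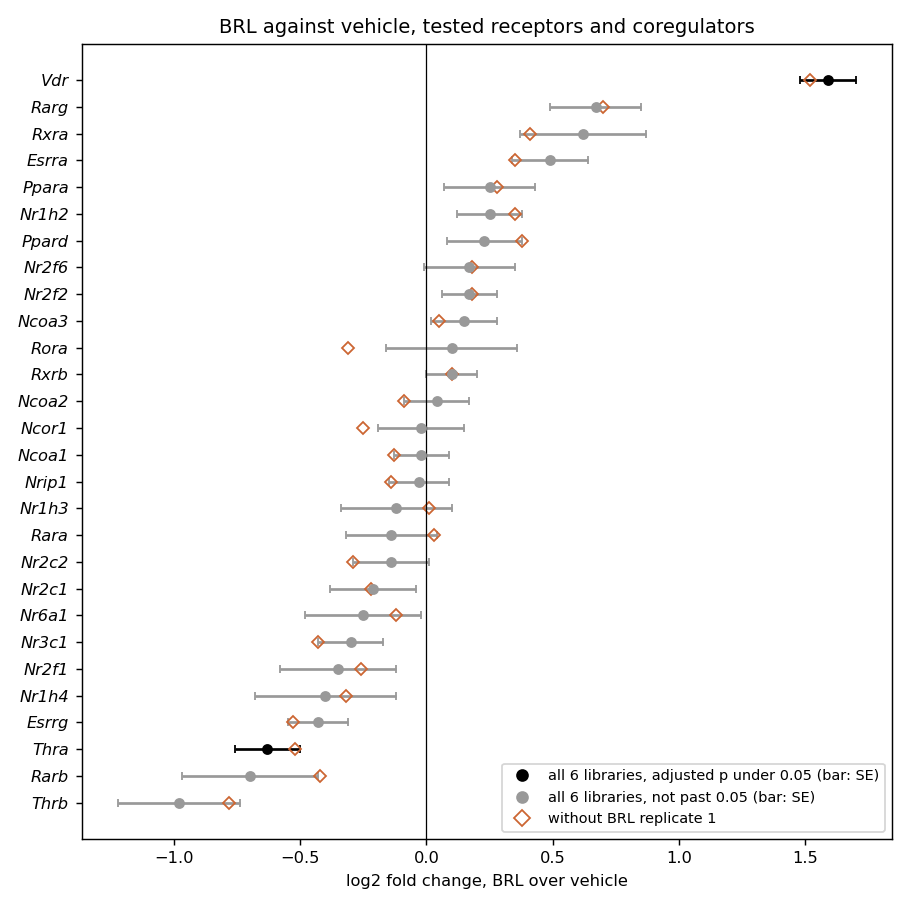
Log2 fold change of BRL over vehicle for the 28 tested genes. Filled points are the fit on all 6 libraries with its standard error (black where adjusted p is under 0.05), and open diamonds the fit without BRL replicate 1. Vdr at 1.59 stands to the right of all others, Thra at −0.63 is the other black point, and the diamonds of Rora and Ncor1 lie well to the left of their points.

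Vdr (ENSMUSG00000022479) encodes the receptor of calcitriol, the active form of vitamin D, and binds DNA as a heterodimer with RXR. Its level was 66.4, 69.9 and 75.4 CPM in the vehicle libraries and 233, 199 and 204 CPM in the BRL libraries. All 3 BRL libraries lay far above all 3 vehicle libraries, and BRL replicate 1 was close to the others. The means were 70.5 ± 4.56 and 212 ± 18.1 CPM (SD, n = 3 each), a 3.00-fold rise, or 1.59 ± 0.11 on the log2 scale (fold change ± SE, as for all log2 fold changes below; edgeR adjusted p = 0.000693). The log2 fold change was 1.52 without BRL replicate 1 (edgeR adjusted p = 2.9e-08). Vdr passed in all 18 alternative analyses, including each fit that left out 1 library, with adjusted p between 6.7e-28 and 0.0201. Its counts were whole and its exons overlap no other annotated gene. Cyp24a1, the vitamin D 24-hydroxylase and a classic target of this receptor, had 1 count in vehicle replicate 2 and none in the other 5 libraries.

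The stretch upstream of the Vdr start is shown because this gene rose. It covers the 250 bases before the RefSeq start on GRCm38.p6, chr15:97908297-97908546, minus strand. Capitals mark GGGCGG, the GC box bound by factors of the Sp family.
Vdr: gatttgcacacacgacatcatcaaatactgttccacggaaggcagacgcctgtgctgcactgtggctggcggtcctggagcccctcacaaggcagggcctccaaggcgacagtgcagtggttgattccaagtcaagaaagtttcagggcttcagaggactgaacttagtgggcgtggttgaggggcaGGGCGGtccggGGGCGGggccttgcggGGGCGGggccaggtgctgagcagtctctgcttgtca
The 3 matches begin 63, 52 and 36 bases before the start. GGGCGG was found on either strand in 35.7% of all 32851 RefSeq windows (250 bases before to 50 after a start) and in 26 of the 57 windows of the 34 receptors and coregulators that have one, so it is a common motif. The Vdr window held neither AGGTCA, the half-site of many nuclear receptors, nor TGACG, the half-site of the cyclic AMP response element (CRE), on either strand. A match or its absence describes these letters in this window only.

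Both thyroid hormone receptor genes had lower values in BRL. Thra (ENSMUSG00000058756) had 55.4, 65.5 and 62.0 CPM in vehicle and 33.6, 40.5 and 44.0 CPM in BRL, with no overlap between groups. It fell from 61.0 ± 5.12 to 39.4 ± 5.28 CPM, a log2 fold change of −0.63 ± 0.13 (edgeR adjusted p = 0.0435). The call is close to the threshold: Thra passed in 12 of 18 alternatives, with adjusted p between 0.000261 and 0.221. It did not pass with upper-quartile scaling or when vehicle replicate 1, 2 or 3 or BRL replicate 2 or 3 was left out; without BRL replicate 1 the log2 fold change was −0.52 (adjusted p = 0.00195). Thra counts were not whole, and its exons overlap those of Nr1d1, the haem receptor REV-ERBα, which is transcribed from the opposite strand. The sources used here do not say whether reads were counted by strand, so reads of the shared stretch cannot be told apart. Nr1d1 itself had 20.1 ± 0.672 CPM in vehicle and 17.7 ± 5.69 CPM in BRL (log2 fold change −0.18, edgeR adjusted p = 0.658).

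Thrb (ENSMUSG00000021779), the thyroid hormone receptor β, was expressed at a lower level per length, 3.82 ± 0.465 TPM in vehicle. Its values were 14.4, 13.0 and 16.0 CPM in vehicle and 5.16, 9.85 and 7.09 CPM in BRL. The groups did not overlap, and the BRL mean of 7.37 ± 2.36 CPM was 0.509 times the vehicle mean. The log2 fold change of −0.98 ± 0.24 did not pass (edgeR adjusted p = 0.071). Thrb passed in 4 of 18 alternatives: with DESeq2, with the exact test, with no filter on low counts and without BRL replicate 1. The log2 fold change was −0.78 without BRL replicate 1 (adjusted p = 0.0125) and −0.61 with the trend on length and GC also removed (adjusted p = 0.0559).

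Dio2, the type 2 deiodinase that makes active thyroid hormone from its precursor inside cells, was the 1 gene called higher by edgeR's quasi-likelihood test, DESeq2 and the exact test among 17 tested genes of ligand supply and transport; none of these tools called any lower. It had 30.5, 25.2 and 24.5 CPM in vehicle and 114, 52.4 and 52.9 CPM in BRL. All BRL libraries were above all vehicle libraries, with BRL replicate 1 far above the other BRL libraries. Its log2 fold change was 1.45 ± 0.31 (edgeR adjusted p = 0.0478) and 0.99 without BRL replicate 1 (adjusted p = 2.9e-05). Dio2 passed in 12 of 18 alternatives and was not called with limma-voom, nor when vehicle replicate 1, 2 or 3 or BRL replicate 2 or 3 was left out. Its counts were not whole, and its exons overlap those of Gm26512. Of the 17 listed genes, 2 were called higher and none lower without BRL replicate 1 (10.3% and 10.9% over all genes). With the trend also removed, 1 was called higher and none lower (6.66% and 6.91% over all genes).

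The stretches upstream of Thrb and Dio2 are shown because this receptor and the enzyme that supplies its ligand had values that did not overlap between groups. The factor CREB, which responds to cyclic AMP, binds the palindrome TGACGTCA or its half-site TGACG. β-adrenergic receptors can raise cyclic AMP, but neither cyclic AMP nor CREB binding was measured here. The windows are chr14:17660710-17660959, plus strand, for the first of the RefSeq starts of Thrb, and chr12:90739039-90739288, minus strand, for Dio2, both on GRCm38.p6 and 250 bases long. Capitals mark AGGTCA and TGACG in Thrb and the palindrome in Dio2.
Thrb: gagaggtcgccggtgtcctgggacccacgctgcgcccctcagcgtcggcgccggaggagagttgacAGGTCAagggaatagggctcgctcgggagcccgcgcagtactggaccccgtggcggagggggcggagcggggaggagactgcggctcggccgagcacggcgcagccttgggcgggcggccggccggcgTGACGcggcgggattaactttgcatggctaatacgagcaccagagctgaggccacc
Dio2: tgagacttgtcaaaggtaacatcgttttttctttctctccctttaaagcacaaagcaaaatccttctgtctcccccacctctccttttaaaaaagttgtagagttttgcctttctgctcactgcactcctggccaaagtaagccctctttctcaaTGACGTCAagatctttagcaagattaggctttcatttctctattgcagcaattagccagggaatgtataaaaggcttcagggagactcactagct
The window of the second Thrb start held neither AGGTCA nor TGACG on either strand. At the first, AGGTCA begins 184 bases and TGACG 56 bases before the start. In Dio2 the palindrome begins 95 bases before the start and contains TGACG on both strands. Among all 32851 windows, 16.3% held AGGTCA, 20.8% TGACG and 1.79% TGACGTCA on either strand. Among the 57 windows of the receptors and coregulators, the counts were 10 (17.5%), 13 (22.8%) and 1 (1.75%, in Nr6a1), near those shares.

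Of 13 tested genes on a list of thyroid hormone receptor targets, edgeR's quasi-likelihood test called none higher and 2 lower, Myh6 and Pln. Unadjusted p was under 0.05 for 8 of the 13, against 2698 of 12047 over all genes. All BRL libraries lay below the vehicle libraries for 6 of the 13 and above for 2 (15.5% and 16.0% over all genes). DESeq2 called 1 higher and 3 lower, and the exact test 1 higher and 4 lower. With BRL replicate 1 left out, 4 were called higher and 5 lower (10.3% and 10.9% over all genes). Myh6, the α-myosin heavy chain, is a textbook gene raised by thyroid hormone, and Pln, the brake on the sarcoplasmic calcium pump, one lowered by it. Pln had 174, 196 and 216 CPM in vehicle and 60.6, 66.6 and 76.9 CPM in BRL (log2 fold change −1.52 ± 0.13, edgeR adjusted p = 0.00183). Myh6 had 3002, 3404 and 3602 CPM in vehicle and 979, 1398 and 1611 CPM in BRL (−1.33 ± 0.19, adjusted p = 0.0117). Both are also on the cardiomyocyte marker list, of which edgeR called 3 of 15 tested genes lower. The third was Mybpc3, the cardiac myosin-binding protein C, with 165, 164 and 180.4 CPM in vehicle and 108, 82.9 and 101 CPM in BRL (−0.80 ± 0.12, adjusted p = 0.0129).

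The retinoic acid receptors, which bind all-trans retinoic acid, had values in opposite directions, and edgeR's quasi-likelihood test called none. Rarg, the γ isotype, had 9.19, 8.81 and 9.12 CPM in vehicle and 13.6, 17.3 and 12.2 CPM in BRL. The vehicle values were almost the same and all BRL values were higher, with a log2 fold change of 0.67 ± 0.18 (edgeR adjusted p = 0.0899). Rarb, the β isotype and itself a retinoic acid target, had 15.0, 15.7 and 16.6 CPM in vehicle and 5.69, 10.8 and 12.6 CPM in BRL. All its BRL values were lower and BRL replicate 1 was the lowest, at −0.70 ± 0.27 (adjusted p = 0.176). Rara had 31.4, 30.8 and 34.7 CPM in vehicle and 21.8, 35.9 and 30.1 CPM in BRL, where the groups overlapped (−0.14 ± 0.18, adjusted p = 0.676). Rarg was called by edgeR's exact test and without BRL replicate 1 (0.70, adjusted p = 0.0194), and with the trend also removed it was not (0.53, adjusted p = 0.0727). The exons of Rarb overlap those of Top2b and Gm48162. Of 8 tested retinoid targets, edgeR called 0, with 3 at an unadjusted p under 0.05; the smallest p was that of Tgm2, tissue transglutaminase, with 172, 178 and 179 CPM in vehicle and 130.2, 137 and 145 CPM in BRL (log2 fold change −0.36 ± 0.09, adjusted p = 0.0743). DESeq2 and edgeR's exact test each called 1 of the 8 lower. Without BRL replicate 1, the quasi-likelihood test called 1 higher and 1 lower (10.3% and 10.9% over all genes). With the trend also removed it called none higher and 1 lower (6.66% and 6.91% over all genes). Rarb is itself on this list and is among the 3 with an unadjusted p under 0.05.

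Nr3c1, which binds cortisol and corticosterone, had 118, 101 and 113 CPM in vehicle and 105, 76.2 and 86.6 CPM in BRL. The groups overlapped through BRL replicate 1, and the log2 fold change of −0.30 ± 0.13 did not pass (edgeR adjusted p = 0.226). It was called at −0.43 without BRL replicate 1 (adjusted p = 0.00431), but not with the trend also removed (−0.23, adjusted p = 0.0752). Among 17 tested glucocorticoid receptor targets, edgeR's quasi-likelihood test called 1 higher and none lower. With an unadjusted p under 0.05 there were 8 of the 17, against 2698 of 12047 over all genes. DESeq2 and the exact test each called 3 of the targets higher and 1 lower. All BRL libraries lay above the vehicle libraries for 5 of them and below for 3 (16.0% and 15.5% over all genes). The list's median log2 fold change was 0.44. The gene that rose was Cebpd, a C/EBP transcription factor of acute responses, with 6.50, 6.92 and 6.08 CPM in vehicle and 15.9, 19.1 and 13.3 CPM in BRL. Its BRL values were all above the highest vehicle value, at a log2 fold change of 1.30 ± 0.19 (adjusted p = 0.0131). Cebpd was not called when vehicle replicate 1, 2 or 3 was left out, and its exons overlap those of Spidr. Without BRL replicate 1, 9 of the 17 targets were called higher and 3 lower, where 10.3% and 10.9% of all genes were. With the trend also removed the counts were 7 and 1, against 6.66% and 6.91% of all genes. Of the 12 tested chaperones that hold steroid receptors ready for ligand, edgeR called 0, with 3 at an unadjusted p under 0.05, and neither DESeq2 nor the exact test called any. The smallest p there was that of Dnajb1, an Hsp40 co-chaperone, with 46.6, 51.8 and 50.5 CPM in vehicle and 57.4, 62.5 and 58.5 CPM in BRL (log2 fold change 0.26 ± 0.10, adjusted p = 0.171).

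**Figure D3:**
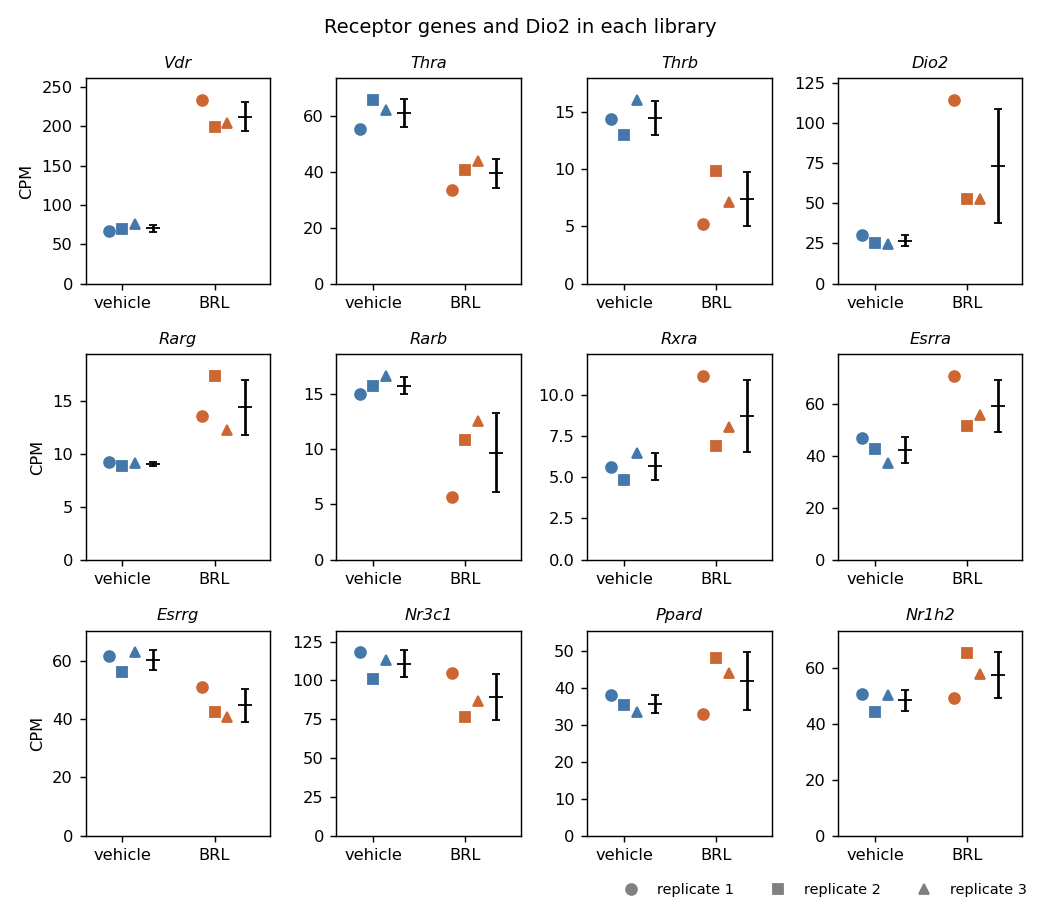
Values of 11 receptor genes and Dio2 in CPM in each library; marker shape gives the replicate number, blue is vehicle, orange is BRL, and the black bar is mean ± SD of 3 libraries. Vdr separates by a wide gap (up to 75.4 CPM in vehicle, from 199 CPM in BRL), whereas Nr3c1, Ppard and Nr1h2 overlap through BRL replicate 1.

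The RXR partners were not called. Rxra, the α isotype and the main one in heart development, had 5.61, 4.83 and 6.49 CPM in vehicle and 11.1, 6.90 and 8.06 CPM in BRL. All BRL values were higher, but the gap between the groups was small, and the log2 fold change of 0.62 ± 0.25 did not pass (edgeR adjusted p = 0.195). It was 0.41 without BRL replicate 1 (adjusted p = 0.217). Rxrb had 65.7, 62.1 and 61.4 CPM in vehicle and 67.6, 71.5 and 63.0 CPM in BRL, so the groups overlapped (0.10 ± 0.10, adjusted p = 0.601).

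Of the 5 tested lipid and sterol sensors, edgeR called 0, with 0 at an unadjusted p under 0.05, and DESeq2 and the exact test called none. Nr1h2, which senses oxysterols and drives cholesterol efflux genes, had 50.7, 44.1 and 50.3 CPM in vehicle and 49.2, 65.3 and 57.9 CPM in BRL. Ppard, which senses fatty acids, had 38.1, 35.5 and 33.4 CPM in vehicle and 33.1, 48.3 and 44.1 CPM in BRL. In both genes BRL replicates 2 and 3 lay above all vehicle libraries and BRL replicate 1 did not. The log2 fold changes were 0.25 ± 0.13 for Nr1h2 (edgeR adjusted p = 0.292) and 0.23 ± 0.15 for Ppard (adjusted p = 0.41). Without BRL replicate 1 both were called, Nr1h2 at 0.35 (adjusted p = 0.0175) and Ppard at 0.38 (adjusted p = 0.0131). With the trend also removed Ppard was still called at 0.34 (adjusted p = 0.0248) and Nr1h2 was not (0.12, adjusted p = 0.414). Ppara, the PPAR of fatty acid oxidation in heart and liver, had 9.42 ± 1.55 and 11.2 ± 0.575 CPM (0.25 ± 0.18, adjusted p = 0.454). Nr1h3, the LXR α form, and Nr1h4, the bile acid receptor FXR, had log2 fold changes of −0.12 and −0.40 with adjusted p of 0.786 and 0.431.

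The target lists of these sensors gave no call in edgeR on all 6 libraries. Of 24 tested PPAR targets 0 passed, with 9 at an unadjusted p under 0.05 (2698 of 12047 over all genes). DESeq2 and the exact test each called 2 lower. The gene of smallest p was Pdk4, the kinase that shuts pyruvate out of the citric acid cycle, with 195, 174 and 187 CPM in vehicle and 144, 130.4 and 145 CPM in BRL (log2 fold change −0.41 ± 0.10, adjusted p = 0.0612). The groups of Pdk4 did not overlap, and 8 of the 24 targets had all BRL libraries below and 2 all above, against 15.5% and 16.0% of all genes. Without BRL replicate 1, 8 of the 24 were called lower and 1 higher, where 10.9% and 10.3% of all genes were. The counts were again 8 and 1 with the trend also removed (6.91% and 6.66% of all genes). Of 11 tested LXR and RXR targets 0 passed, with 1 at an unadjusted p under 0.05 and none called by DESeq2 or the exact test. Without BRL replicate 1, 12 were tested, with 1 called higher and none lower. None was called with the trend also removed. On all 6 libraries Apoe, the lipoprotein carrier, had the smallest p, with 75.6, 67.6 and 70.1 CPM in vehicle and 77.7, 94.9 and 87.2 CPM in BRL (0.28 ± 0.11, edgeR adjusted p = 0.176).

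The 9 tested orphan receptors, which have no agreed natural ligand or were named before one was found, gave no call in edgeR; 2 had an unadjusted p under 0.05, DESeq2 called none and the exact test called 1 lower. The ERRs α and γ drive overlapping sets of mitochondrial genes, and here their values went in opposite directions. Esrra had 47.1, 42.6 and 37.3 CPM in vehicle and 70.7, 51.5 and 55.8 CPM in BRL. All BRL values were higher, with replicate 1 the highest, at a log2 fold change of 0.49 ± 0.15 (edgeR adjusted p = 0.108). Esrrg had 61.7, 56.2 and 62.8 CPM in vehicle and 51.0, 42.4 and 40.6 CPM in BRL. All its BRL values were lower, at −0.43 ± 0.12 (adjusted p = 0.0885). Without BRL replicate 1 both were called, Esrra at 0.35 (adjusted p = 0.0236) and Esrrg at −0.53 (adjusted p = 0.00107). With the trend also removed Esrrg was called (−0.37, adjusted p = 0.0124) and Esrra was not (0.30, adjusted p = 0.0589). The exons of Esrra overlap those of Trmt112 and Mir6990. Of 30 tested ERR targets, edgeR's quasi-likelihood test called 1 higher and none lower, with 8 at an unadjusted p under 0.05. DESeq2 called 2 higher and 1 lower, the exact test 3 higher and 1 lower, and the fit without BRL replicate 1 called 10 higher and 1 lower (10.3% and 10.9% over all genes). In 13 of the 30 all BRL libraries lay above and in 3 below the vehicle libraries, where the shares over all genes were 16.0% and 15.5%. The list includes the receptor genes Esrra and Ppara, which are both among the 13 (Ppara by a margin smaller than the rounding), and Esrra is also among the 10. The gene that rose was Phb2, a prohibitin of the inner mitochondrial membrane, with 143, 138 and 133 CPM in vehicle and 187, 187 and 179 CPM in BRL. Its groups were well apart with little spread (0.42 ± 0.09, adjusted p = 0.0468), but its counts were not whole, and it was not called with limma-voom, in the fit with a replicate block, with the trend removed, or without vehicle replicate 1, 2 or 3 or BRL replicate 2 or 3.

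Rora, an orphan receptor of lipid metabolism and the circadian loop, showed how far BRL replicate 1 could move a value. It had 105, 85.2 and 99.1 CPM in vehicle and 155, 72.8 and 81.9 CPM in BRL. The highest value was in BRL replicate 1 and the lowest values in BRL replicates 2 and 3. The log2 fold change was 0.10 ± 0.26 on all libraries (edgeR adjusted p = 0.86), −0.31 without BRL replicate 1 (adjusted p = 0.0349) and −0.02 with the trend on length and GC also removed (adjusted p = 0.918). The longest Rora transcript has 10878 bases, and its exons overlap those of Gm15511. Of the 5 other nuclear receptors outside the 38 that were tested, edgeR called 0, with 1 at an unadjusted p under 0.05, and DESeq2 and the exact test called none. Without BRL replicate 1, 4 of these were tested and 2 were called lower (10.9% over all genes). With the trend also removed, 1 was called lower (6.91% over all genes). None was called higher in either fit. The remaining orphan receptors, the COUP-TFs Nr2f1, Nr2f2 and Nr2f6, the testicular receptors Nr2c1 and Nr2c2, and Nr6a1, had log2 fold changes from −0.35 to 0.17 with adjusted p from 0.389 to 0.633.

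The 5 coregulators were not called: edgeR gave 0 calls, with 0 at an unadjusted p under 0.05, and DESeq2 and the exact test gave none. Ncor1 had 261, 261 and 235 CPM in vehicle and 323, 198 and 223 CPM in BRL. BRL replicate 1 was above and BRL replicates 2 and 3 were below all vehicle libraries, which left a log2 fold change of −0.02 ± 0.17 (edgeR adjusted p = 0.956). It was called at −0.25 (adjusted p = 0.0296) without BRL replicate 1, and with the trend also removed it was not (−0.11, adjusted p = 0.32). Ncor1 counts were not whole, and its exons overlap those of Pigl and Ttc19.

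The p160 coactivators, which bring histone acetyltransferases to liganded receptors, overlapped between groups. Ncoa1 had 111, 110.1 and 112 CPM in vehicle and 126, 97.1 and 105 CPM in BRL (−0.02 ± 0.11, edgeR adjusted p = 0.926). Ncoa2 had 68.8, 63.8 and 64.3 CPM in vehicle and 79.4, 60.8 and 62.3 CPM in BRL (0.04 ± 0.13, adjusted p = 0.879). Ncoa3 had 36.1, 39.0 and 42.0 CPM in vehicle and 49.9, 41.2 and 39.2 CPM in BRL (0.15 ± 0.13, adjusted p = 0.511). In each, BRL replicate 1 was the highest of the 6 libraries. Nrip1, a ligand-dependent corepressor that restrains mitochondrial genes, had 61.2, 57.7 and 54.7 CPM in vehicle and 65.3, 51.9 and 52.4 CPM in BRL, with the same order (−0.03 ± 0.12, adjusted p = 0.899). All 5 coregulators, Rora and Nr2c2 have a longest transcript of at least 7000 bases, and the log2 ratio of BRL replicate 1 to the vehicle mean was positive in all 7, from 0.13 for Nr2c2 to 0.68 for Rora. In BRL replicate 2 it ran from −0.40 for Rora to 0.08 for Ncoa3.

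**Figure D4:**
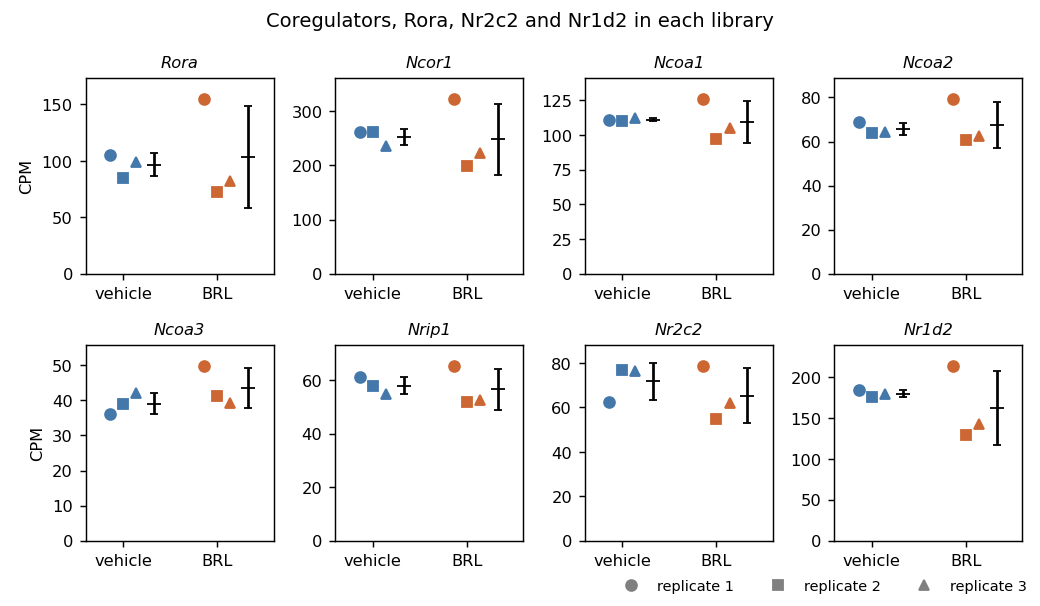
CPM in each library of the 5 coregulators and of Rora, Nr2c2 and Nr1d2 (REV-ERBβ); marker shape gives the replicate number and the black bar mean ± SD of 3 libraries. In all 8 panels BRL replicate 1 is the highest library, as for Rora at 155 CPM against 72.8 and 81.9 CPM in the other BRL libraries.

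A wider list of corepressors and their deacetylases held 21 tested genes, of which edgeR's quasi-likelihood test called 1 higher and 2 lower, and DESeq2 and the exact test each 1 higher and 3 lower. With an unadjusted p under 0.05 there were 11 of the 21, against 2698 of 12047 over all genes. Without BRL replicate 1 the quasi-likelihood test called 6 higher and 5 lower (10.3% and 10.9% over all genes). Sirt1, a deacetylase that depends on NAD, had 96.2, 101 and 86.3 CPM in vehicle and 184, 149.9 and 154 CPM in BRL. It rose by a log2 fold change of 0.78 ± 0.12 (edgeR adjusted p = 0.0129), with no overlap between groups. Its counts were not whole, its exons overlap those of Gm16145, and it was not called when vehicle replicate 1, 2 or 3 was left out. The genes that fell encode class IIa histone deacetylases, which shuttle between nucleus and cytoplasm and restrain MEF2 factors in muscle. The class did not move as one. Hdac4, of the same class, had 12.3, 13.4 and 13.2 CPM in vehicle and 21.6, 16.0 and 19.3 CPM in BRL. Its log2 fold change of 0.55 ± 0.16 did not pass (adjusted p = 0.0976). Hdac4 was called higher without BRL replicate 1 (0.45, adjusted p = 0.0474) and with the trend also removed (0.52, adjusted p = 0.0315). Hdac7 had 41.5, 42.4 and 42.8 CPM in vehicle and 22.4, 30.5 and 24.8 CPM in BRL (−0.71 ± 0.13, adjusted p = 0.034). Hdac5 had 62.6, 68.6 and 66.3 CPM in vehicle and 49.4, 48.0 and 48.4 CPM in BRL (−0.44 ± 0.09, adjusted p = 0.0478). Neither overlapped between groups, and Hdac5 was nearly the same in all 3 BRL libraries. Hdac7 passed in 14 of 18 alternatives and not without vehicle replicate 1, 2 or 3 or BRL replicate 3, and its exons overlap those of Slc48a1. Hdac5 passed in 8 of 18; of the fits that left out 1 library, it passed only in the one without BRL replicate 1 (−0.44, adjusted p = 0.00258). Of 24 other coactivators edgeR called 0, with 6 at an unadjusted p under 0.05. DESeq2 called none and the exact test 1 lower. Without BRL replicate 1, edgeR's quasi-likelihood test called 5 of them higher and 2 lower (10.3% and 10.9% over all genes). With the trend also removed it called 2 higher and 1 lower (6.66% and 6.91% over all genes). On all 6 libraries the smallest p was that of Trim24, a chromatin reader that binds retinoid receptors. It had 92.2, 82.0 and 91.0 CPM in vehicle and 61.0, 71.8 and 68.3 CPM in BRL (−0.40 ± 0.10, edgeR adjusted p = 0.08). Trim24 was called lower without BRL replicate 1 (−0.33, adjusted p = 0.0131) and with the trend also removed (−0.31, adjusted p = 0.0209).

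**Figure D5:**
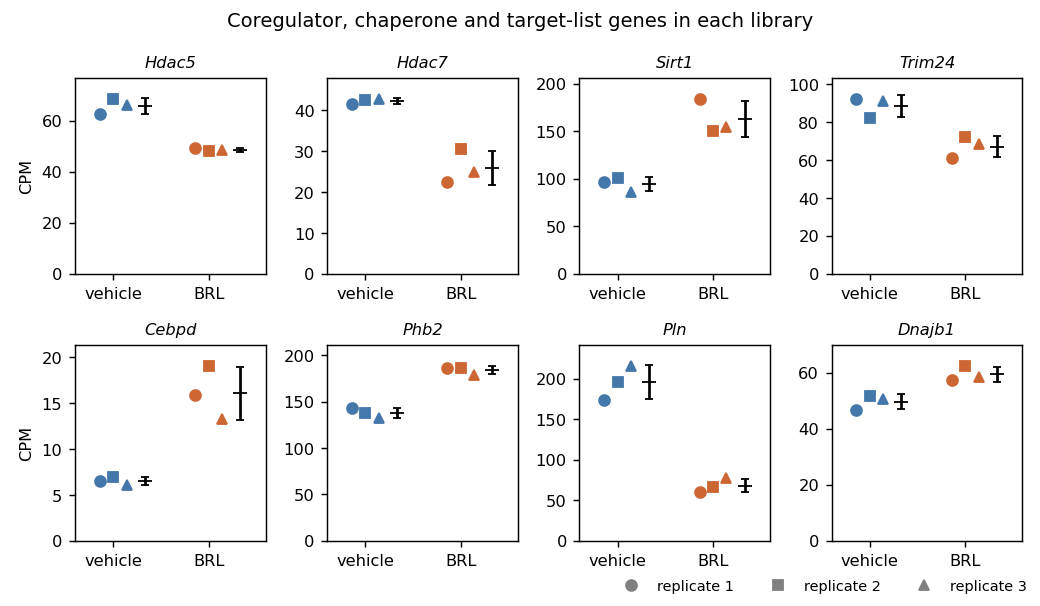
CPM in each library of genes from the coregulator, chaperone and target lists; marker shape gives the replicate number and the black bar mean ± SD of 3 libraries. Hdac5, Hdac7 and Pln are lower and Sirt1, Cebpd and Phb2 higher in every BRL library than in any vehicle library. Trim24 (lower) and Dnajb1 (higher) did not pass in the fit on all 6 libraries and were called without BRL replicate 1.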

How the data were processed

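The genes and lists described were chosen with earlier results of these data known. For each gene, the deposited sample files give an expected count and a fraction of transcripts. The submitters' processing notes name cutadapt, Bowtie, RSEM 1.17, edgeR and the build NCBIM37; the sources used here give neither settings nor strand handling. Per the labels' protocols, libraries were made with the Illumina TruSeq RNA kit from total RNA. The deposited fraction was rescaled to TPM. A deposited table of the authors' log2 values, for 13863 of the genes, was used for 1 alternative analysis.

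Expected counts split a read that fits several loci; a gene was called not whole if any library's count differed from a whole number by more than 0.005. The rounded counts went into edgeR 4.0.16 (R 4.3.3): filterByExpr at a minimum count of 10, TMM factors and a quasi-likelihood F-test on group, adjusted by Benjamini-Hochberg over 12047 genes. CPM values are TMM-scaled. Standard errors are the size of the log2 fold change divided by the root of F. The script was tested on simulated data. Symbols were matched for 88.4% of gene identifiers; exon overlap and transcript length come from an annotation of another build, and upstream sequences and their coordinates from RefSeq (GRCm38.p6).

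Values in every library are given for genes past adjusted p 0.05, the 10 receptors and all 5 coregulators of smallest p, the 8 receptors of highest level per length in vehicle, and genes called only with 1 library left out; of other lists, up to 4 genes past the threshold or else the gene of smallest p are named (marker lists other than cardiomyocyte are given by counts and sums). A gene that this rule takes is not reported here. Nr1d1, Nr1d2 and Cyp24a1 lie outside the rule. Alternatives were DESeq2 1.42.0, edgeR's exact test, limma-voom (limma 3.58.1), other scalings and filters, a replicate block, and each library left out; removal of a loess trend on length and GC content was added after seeing the data.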

Additional observations from a re-analysis of the deposited data

How the results depend on the processing

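Of the 28 tested genes, Vdr kept its call in every alternative, and Rora changed sign while called in 1 fit, at −0.31 without BRL replicate 1, with a range of −0.31 to 0.30 over the fits that left out 1 library. The cause of the other changes was not tested, except that leaving out a library leaves fewer samples. The number of receptors and coregulators called higher, 1 in the analysis reported, was 2 with edgeR's exact test, 2 without BRL replicate 1 and with the length and GC trend removed, and 1 to 5 with each library left out. The number called lower, also 1, was 2 with DESeq2, 3 with the exact test, 0 with upper-quartile scaling, 2 with no filter on low counts, 2 without BRL replicate 1 and with the trend removed, and 0 to 6 with each library left out. The highest value of each of these ranges, and of those below, came without BRL replicate 1. Over all genes, 122 higher became 288 with DESeq2, 418 with the exact test, 282 with no filter, 63 with a replicate block, 804 without BRL replicate 1 and with the trend removed, and 17 to 1240 with each library left out. The 216 lower became 330 with DESeq2, 527 with the exact test, 330 with no filter, 834 without BRL replicate 1 and with the trend removed, and 15 to 1315 with each library left out. Of the 169 tested genes on the other lists, the 4 called higher became 8 with DESeq2, 9 with the exact test, 2 with limma-voom, 8 with no filter, 23 without BRL replicate 1 and with the trend removed, and 0 to 37 with each library left out. The 4 called lower became 10 with DESeq2, 12 with the exact test, 7 with the trend removed, 22 without BRL replicate 1 and with the trend removed, and 1 to 26 with each library left out. The replicate block left 1 receptor higher and 1 lower. Same-numbered libraries had correlations of 0.102, −0.021 and −0.0176 of their deviations from the group means. Libraries of different number had correlations from −0.113 to 0.133. With 3 libraries per group and BRL replicate 1 apart from the others, these values cannot tell whether the numbers pair the libraries. The count of 30 genes expressed was 28 at 2 CPM or 1 TPM, where Esr1 and Esr2 dropped out.

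The BRL libraries were also deeper than all vehicle libraries. The 10 genes with at most 9 counts in any library, among them the oestrogen receptors, Nr3c2 and Pparg, were not tested.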
